A study of Rattus norvegicus with 6 samples.

Results

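Tumor necrosis factor and microbial or injury-derived ligands act on liver cells through surface receptors, which pass the signal over adaptor proteins to the transcription factor NF-kB. In the resting cell NF-kB is held in the cytoplasm by inhibitor proteins. Once released it drives cytokine and adhesion molecule genes, and also the gene of its own inhibitor, which closes a negative feedback loop. In ischemia reperfusion of the liver this pathway is best known for linking Kupffer cells and sinusoidal endothelium to the recruitment of leukocytes.

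The expression of 7 genes along this route was followed, out of 26689 gene IDs counted in the series. They were chosen by Ensembl ID and comprised the receptors Tnfrsf1a (ENSRNOG00000031312) and Tlr4 (ENSRNOG00000010522), the adaptor Myd88 (ENSRNOG00000013634), the NF-kB subunit gene Nfkb1 (ENSRNOG00000023258), the inhibitor Nfkbia (ENSRNOG00000007390) and the adhesion molecules Icam1 (ENSRNOG00000020679) and Vcam1 (ENSRNOG00000014333). The ID list that chose the genes also gave their symbols. All 7 symbols stand in the RefSeq table at hand, but 0 of the 26689 IDs do, so the pairing of ID and symbol was not checked there.

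RNA came from rats (Rattus norvegicus), and the sources used here give no strain, sex or age. One group, called treated IR below, had the portal vein clamped for a time and reopened (ischemia reperfusion, IR) and was given 9 mg/kg etanercept, a soluble decoy receptor for tumor necrosis factor, 16 to 18 h before IR, and 6 µg/kg/min nitroglycerin, a nitric oxide donor, by infusion before and during IR. Another group had IR alone, and the controls were healthy and untreated, with no sham operation named. The drugs were given only together, so their effects cannot be told apart. The IR and treated IR groups were measured 1 day after IR. Each condition was measured in hepatocytes freshly isolated by collagenase perfusion and, from other animals, in whole liver. RNA of 3 animals was pooled into 1 library per group, so no spread between animals can be had, and a ratio of 2 libraries of a preparation carries a counting interval but no p-value.

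Reads in genes ran from 1945331 to 7160610 per library, and the 7 genes together had 606, 1110 and 791 reads in hepatocytes (treated IR, IR, control) and 2019, 1530 and 471 in whole liver (same order). Levels are given as CPM, the read count relative to library size, after scaling by TMM, a method that evens out differences in library composition. Summed over the 7 genes the level was 281, 215 and 246 CPM in treated IR, IR and control hepatocytes, and 270, 227 and 206 CPM in the same conditions of whole liver. Relative to library totals without TMM, the order of the conditions differs in both preparations. CPM values compare 1 gene across libraries and not 1 gene with another, because transcript length is not taken into account. Of the 7 genes, 6 passed the filter on low counts and belonged to the 9932 genes tested. Tlr4 did not pass. Vcam1 passed through its liver libraries, all 3 of which were over the filter level of 2.28 CPM while its 3 hepatocyte libraries were under it. Cell type markers could not be matched to the IDs, so the purity of the hepatocytes was not checked.

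Nfkbia, Icam1, Vcam1 and Nfkb1 are known targets of NF-kB, and the stretches of their RefSeq promoters (GRCr8) that hold NF-kB motif letters are shown for that reason. The capitals mark a match on either strand to the kappa-B consensus (10 letters) or to the letters GGAAATTCC (9 letters), which overlap each other in Nfkbia and Nfkb1.
Nfkbia, chr6:78597073-78597128, minus strand: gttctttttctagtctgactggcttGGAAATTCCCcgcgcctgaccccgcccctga
Icam1, chr8:27829602-27829660, plus strand: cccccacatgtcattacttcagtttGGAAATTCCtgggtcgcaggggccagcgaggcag
Vcam1, chr2:206742842-206742901, minus strand: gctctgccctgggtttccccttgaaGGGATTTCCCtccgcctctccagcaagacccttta
Nfkb1, chr2:226805440-226805469, minus strand: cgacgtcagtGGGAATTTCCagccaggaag

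The match began 31 bases before the start of the transcript in Nfkbia, 218 bases before it in Icam1, and 93 bases before it in Vcam1. In Nfkb1 it began 3 bases after the start. The consensus occurred in 3 of the 7 promoters, against 7.51% of all 33469 promoter windows of the same length, and GGAAATTCC in 3 of 7, against 0.332%. These motifs were settled on after several spellings had been looked at, and a match describes letters and not a site in use. The windows of Tnfrsf1a, Tlr4 and Myd88 held neither spelling, which says nothing about the factor.

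Across conditions, 1 of the genes stood out by the rule of size used here, a ratio of at least 2-fold whose 95% counting interval excludes 1. This was Nfkbia, which was higher in the IR library than in the control library of hepatocytes, where 16.5% of the 9932 genes tested met the rule (9.53% in the higher direction). None of the genes met it in treated IR against IR of hepatocytes, beside 23.3% of all genes, or in treated IR against control, beside 8.32%. In whole liver none of the 6 genes over the filter met the rule, beside 5.98% of all genes for IR against control, 2.77% for treated IR against IR and 7.2% for treated IR against control. The share of called genes in the list was thus near or under that of all genes. Among the 6 genes over the filter, 33 ratios between conditions had more than 3 reads on both sides. Of these, 1 met the rule, and 12 had an interval that excluded 1 at any size, namely 9 of the 15 hepatocyte ratios and 3 of the 18 liver ratios. With library totals alone these were 10 of 15 and 10 of 18, so the liver count depends on the scaling. The hepatocyte genes behind the count depend on it too. In treated IR against IR they were Tnfrsf1a, Myd88 and Icam1 with TMM, and Nfkb1, Nfkbia and Icam1 with library totals. Ratios within a preparation share libraries and are not independent of each other.

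**Figure D1:**
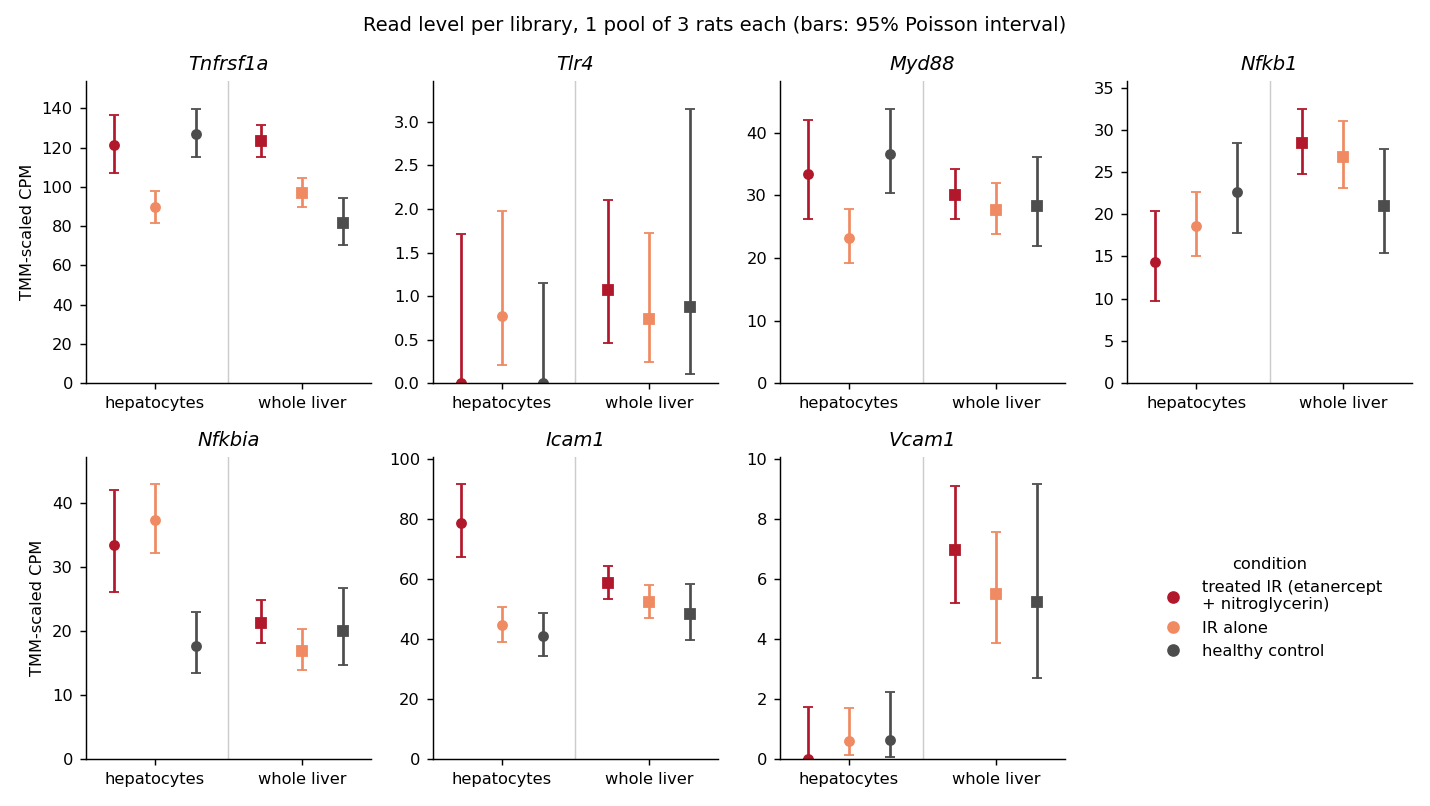
TMM-scaled CPM (vertical axis, a separate linear scale per gene) of the 7 genes in each library, with hepatocytes (circles) left and whole liver (squares) right in each panel, and 95% exact Poisson intervals as bars. Nfkbia lay at 33.4 and 37.3 CPM in treated IR and IR hepatocytes, against 17.7 CPM in control hepatocytes, and Vcam1 had 0, 3 and 2 reads in treated IR, IR and control hepatocytes.

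Tnfrsf1a encodes the tumor necrosis factor receptor that carries a death domain and is found on most cells. It had 121 CPM in treated IR, 89.5 in IR and 127 in control hepatocytes, from 261, 463 and 409 reads. In whole liver it had 123 CPM in treated IR, 96.8 in IR and 81.6 in control, from 922, 653 and 187 reads. In hepatocytes the IR library was thus the lowest, while in liver the control library was the lowest and the treated IR library the highest.

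The ratio of IR to control for Tnfrsf1a was 0.705 in hepatocytes (95% Clopper-Pearson interval of counting error 0.616 to 0.808) and 1.19 in liver (1.01 to 1.40). With scaling by library totals alone the liver ratio was 0.949, and with DESeq2's size factors its interval included 1, so the liver direction depends on the scaling. Treated IR against IR gave 1.35 in hepatocytes (1.16 to 1.58) and 1.27 in liver (1.15 to 1.41). These ratios stayed under 2-fold, and with library totals alone were 1.11 in hepatocytes, where the interval then included 1, and 1.67 in liver. Treated IR against control was 0.954 in hepatocytes (0.814 to 1.12) and 1.51 in liver (1.29 to 1.77). By library totals these were 0.810 and 1.58, and both intervals excluded 1.

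Tlr4, the receptor for bacterial lipopolysaccharide, was close to the limit of detection. It had 0, 4 and 0 reads in treated IR, IR and control hepatocytes, and 8, 5 and 2 reads in the same conditions of whole liver. In liver this was 1.07, 0.741 and 0.873 CPM. A count of 0 allows up to 1.39 CPM in treated IR hepatocytes and 0.931 CPM in control hepatocytes, with 3 reads taken as the limit. Both limits lie at or above the liver level of the same condition, so a difference between the preparations was not detectable at this depth.

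Myd88 is the adaptor through which most Toll-like receptors and the receptor of interleukin-1 signal. Its level was 33.4 CPM in treated IR, 23.2 in IR and 36.6 in control hepatocytes (72, 120 and 118 reads). In whole liver the 3 libraries were close together, at 30.0, 27.7 and 28.4 CPM in the same order (225, 187 and 65 reads). As for Tnfrsf1a, the IR library had the lowest level in hepatocytes. The ratio of IR to control was 0.634 in hepatocytes (counting interval 0.487 to 0.824) and 0.977 in liver (0.733 to 1.32). That of treated IR to IR was 1.44 in hepatocytes (1.06 to 1.95) and 1.08 in liver (0.889 to 1.32). By library totals alone treated IR to IR was 1.18 in hepatocytes, with an interval that included 1. In liver it was then 1.42, with an interval that excluded 1.

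Nfkb1 encodes a precursor that is processed to a DNA-binding subunit of NF-kB. In hepatocytes it had 14.4 CPM in treated IR, 18.6 in IR and 22.7 in control (31, 96 and 73 reads). In liver it had 28.4 CPM in treated IR, 26.8 in IR and 20.9 in control (213, 181 and 48 reads). The treated IR library was the lowest of the hepatocytes and the highest of the livers. Treated IR to control was 0.635 in hepatocytes (0.403 to 0.979) and 1.36 in liver (0.988 to 1.90). With TMM the liver interval includes 1, and the hepatocyte value rests on 31 reads in the treated IR library. By library totals alone the ratios were 0.539 and 1.43, and both intervals excluded 1. Whether the preparations differed was not tested, since each ratio has 1 library per side. IR to control was 0.819 in hepatocytes (0.598 to 1.13) and 1.28 in liver (0.927 to 1.80), and both intervals include 1.

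Nfkbia encodes the inhibitor that binds NF-kB in the cytoplasm, and its gene, with the motif 31 bases before the start shown above, is itself switched on by NF-kB. Its level was 33.4 CPM in treated IR (95% Poisson interval 26.2 to 42.1), 37.3 in IR (32.2 to 43.0) and 17.7 in control hepatocytes (13.4 to 22.9), from 72, 193 and 57 reads. In whole liver it was 21.2 CPM in treated IR (18.1 to 24.8), 16.9 in IR (13.9 to 20.3) and 20.1 in control (14.7 to 26.8), from 159, 114 and 46 reads. With TMM, both hepatocyte libraries after IR were above the control library with intervals that do not touch, and the 3 liver libraries overlapped.

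IR to control for Nfkbia was 2.11 in hepatocytes (1.56 to 2.89). The liver ratio was 0.841 (0.593 to 1.21), and by library totals alone 0.673 with an interval that excluded 1. Treated IR to control was 1.89 in hepatocytes (1.32 to 2.72), short of 2-fold, and 1.06 in liver (0.757 to 1.502). Treated IR to IR was 0.896 in hepatocytes (0.674 to 1.18) and 1.26 in liver (0.982 to 1.61), and both intervals include 1. By library totals alone these were 0.732 and 1.65 and both intervals excluded 1, so the reading depends on the scaling. Across both preparations the log2 ratio of IR to control was 0.43 (SE 0.38), with an adjusted p of 0.996 in edgeR's quasi-likelihood test. It was above 0 in 1 of 2 preparations, and came to -0.12 without the hepatocyte control library and to -0.04 without the hepatocyte IR library. Those fits leave the condition concerned with its liver library alone.

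Icam1 is an adhesion molecule to which leukocyte integrins bind, and in liver it is known on sinusoidal endothelium, Kupffer cells and, after cytokine stimulation, on hepatocytes. It had 78.9 CPM in treated IR (67.5 to 91.7), 44.7 in IR (39.1 to 50.8) and 41.0 in control hepatocytes (34.3 to 48.6), from 170, 231 and 132 reads. Whole liver had 58.7 CPM in treated IR (53.4 to 64.5), 52.3 in IR (47.0 to 58.1) and 48.4 in control (39.9 to 58.3), from 440, 353 and 111 reads. The treated IR library was the highest in each preparation, apart from the others in hepatocytes and overlapping with them in liver.

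Treated IR to control for Icam1 was 1.93 in hepatocytes (1.53 to 2.44) and 1.21 in liver (0.982 to 1.51), and treated IR to IR was 1.77 in hepatocytes (1.44 to 2.16) and 1.12 in liver (0.974 to 1.30). None of the 4 values met the rule of size. With library totals alone the hepatocyte ratios were 1.63 to control and 1.44 to IR. IR to control was 1.09 in hepatocytes (0.877 to 1.36) and 1.08 in liver (0.870 to 1.35), and with library totals alone the liver value was 0.864. Across preparations the log2 ratio of treated IR to control was 0.62 (SE 0.35, unadjusted p = 0.0949, adjusted p = 0.9998, edgeR), higher in 2 of 2 preparations. That of treated IR to IR was 0.50 (SE 0.34, adjusted p = 0.981, edgeR), also higher in 2 of 2. Without the hepatocyte treated IR library these log2 ratios were 0.27 to control and 0.16 to IR. Over all libraries left out in turn they ran from 0.27 to 0.89 and from 0.16 to 0.77. Leaving out a library of a compared condition leaves that condition with the other preparation alone, so such values lean on that preparation.

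Vcam1, an adhesion molecule known on activated endothelium and stellate cells, had 0, 3 and 2 reads in treated IR, IR and control hepatocytes. Both sides of any ratio between hepatocyte conditions are thus at or under the limit of 3 reads, and none is given. In liver it had 6.94 CPM in treated IR, 5.48 in IR and 5.24 in control (52, 37 and 12 reads). The intervals of the 3 liver ratios include 1, with treated IR to control at 1.33 (0.698 to 2.73), IR to control at 1.05 (0.534 to 2.21) and treated IR to IR at 1.27 (0.815 to 1.99).

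**Figure D2:**
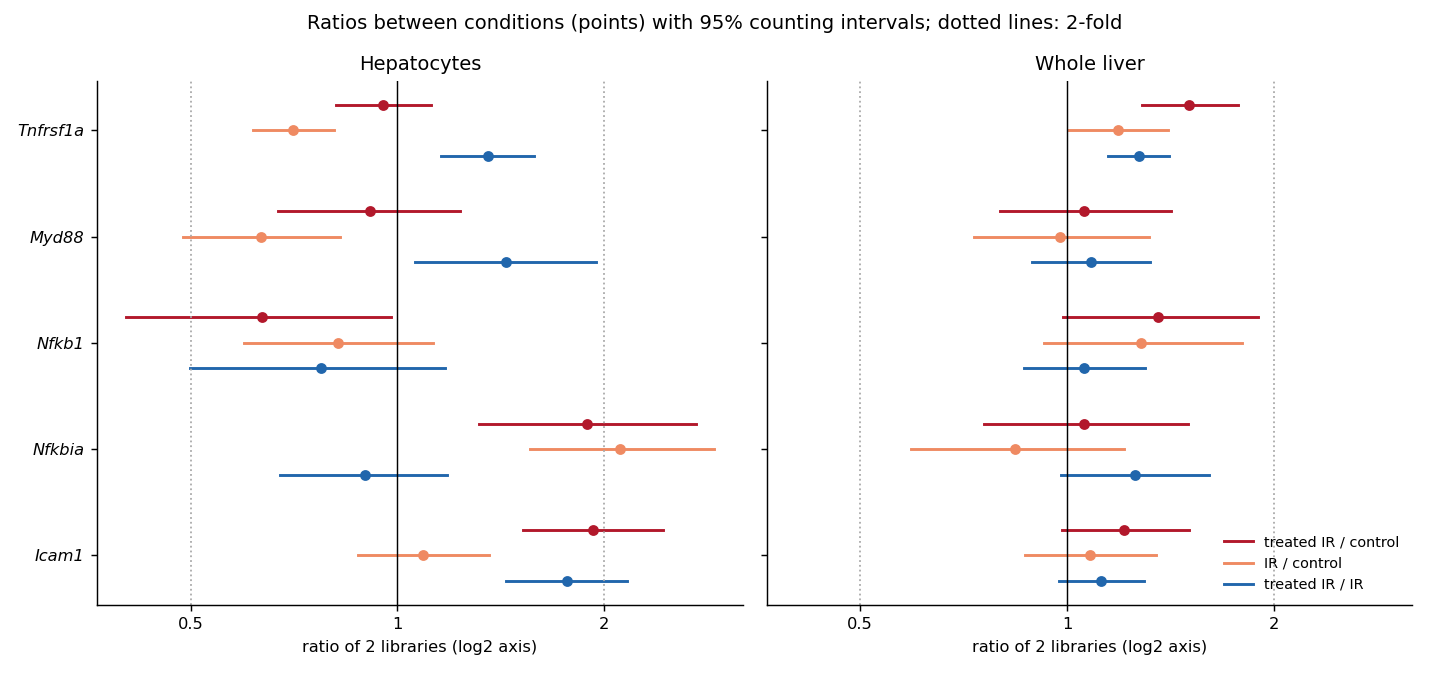
Ratios between conditions (horizontal log2 axis) for the 5 genes with more than 3 reads in every library, in hepatocytes (left) and whole liver (right). Points are TMM-scaled ratios and bars 95% counting intervals, and the only point beyond the dotted 2-fold lines is IR to control of Nfkbia in hepatocytes at 2.11.

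Over the list, these values can be set beside those of all genes. For IR to control in hepatocytes, 2 of the 5 genes with more than 3 reads in every library lay above 1, with a median log2 ratio of -0.28 and 0.01 for all 9932 genes. For treated IR to IR in hepatocytes it was 3 of 5, with medians of 0.43 and -0.04. Treated IR to control in hepatocytes had 2 of 5 above 1 and medians of -0.07 and 0.02. With TMM, the share of ratios whose interval excluded 1 was 3 of 5 in each of these hepatocyte comparisons. Over all genes it was 41.8% for IR to control, 44.4% for treated IR to IR and 26.9% for treated IR to control. By library totals alone it was 3, 3 and 4 of 5 in the same order, beside 41.7%, 48% and 28.9%.

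In whole liver all 5 of these genes, and Vcam1, lay above 1 in treated IR against IR, with ratios from 1.06 to 1.27, and in treated IR against control, with ratios from 1.06 to 1.51. Their median log2 ratios, over the 5 genes, were 0.17 and 0.28, beside -0.01 and 0.05 over all genes. These comparisons share the treated IR library. With library totals alone the median of all genes in treated IR against IR moved to 0.38, and the ratios of the 5 genes to between 1.39 and 1.67. IR to control in liver had 3 of 5 above 1 and medians of 0.11 and 0.04. With TMM, the intervals that excluded 1 in liver were those of Tnfrsf1a, 1 of 6 in each comparison, beside 21.7% of all genes for IR to control, 21.9% for treated IR to IR and 24.6% for treated IR to control. With library totals alone they were 1 of 6 (Nfkbia) beside 29.5%, 6 of 6 beside 50.1%, and 3 of 6 (Tnfrsf1a, Nfkb1 and Icam1) beside 25.6%, in the same order of comparisons.

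None of the 6 genes passed edgeR's quasi-likelihood test for a condition effect common to both preparations, where 0% of all genes did in each of the 3 comparisons. The lowest adjusted p of the 6 was 0.996 for IR against control, 0.981 for treated IR against IR and 0.9998 for treated IR against control. By edgeR, DESeq2 and limma-voom 0 of the 6 had an unadjusted p under 0.05 in any of them. Over all genes, those with an unadjusted p under 0.05 in edgeR numbered 332 for IR against control, 297 for treated IR against IR and 230 for treated IR against control, and DESeq2 called 0, 1 and 0 genes and limma-voom 0 in each. The test has 2 residual degrees of freedom and its spread takes in any response that differs between the preparations, so it does not show that the genes did not respond.

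The proportions of the 7 genes within a library do not depend on how libraries are scaled to each other. Nfkbia took 11.9% of their reads in treated IR hepatocytes (exact binomial interval 9.41 to 14.7), 17.4% in IR (15.2 to 19.7) and 7.21% in control (5.50 to 9.24). In liver it took 7.88%, 7.45% and 9.77% in the same order. The IR hepatocyte library was thus the highest of all 6 on this measure also.

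Icam1 took 28.1% of these reads in treated IR hepatocytes (24.5 to 31.8), 20.8% in IR (18.5 to 23.3) and 16.7% in control (14.2 to 19.5), and between 21.8% and 23.6% in the liver libraries. Nfkb1 took 5.12% in treated IR hepatocytes (3.50 to 7.18), 8.65% in IR (7.06 to 10.5) and 9.23% in control (7.30 to 11.5), and between 10.2% and 11.8% in liver. Tnfrsf1a took 43.1%, 41.7% and 51.7% in hepatocytes (treated IR, IR, control) and 45.7%, 42.7% and 39.7% in liver. The share of 1 gene falls when that of another rises, so these are proportions and not levels.

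**Figure D3:**
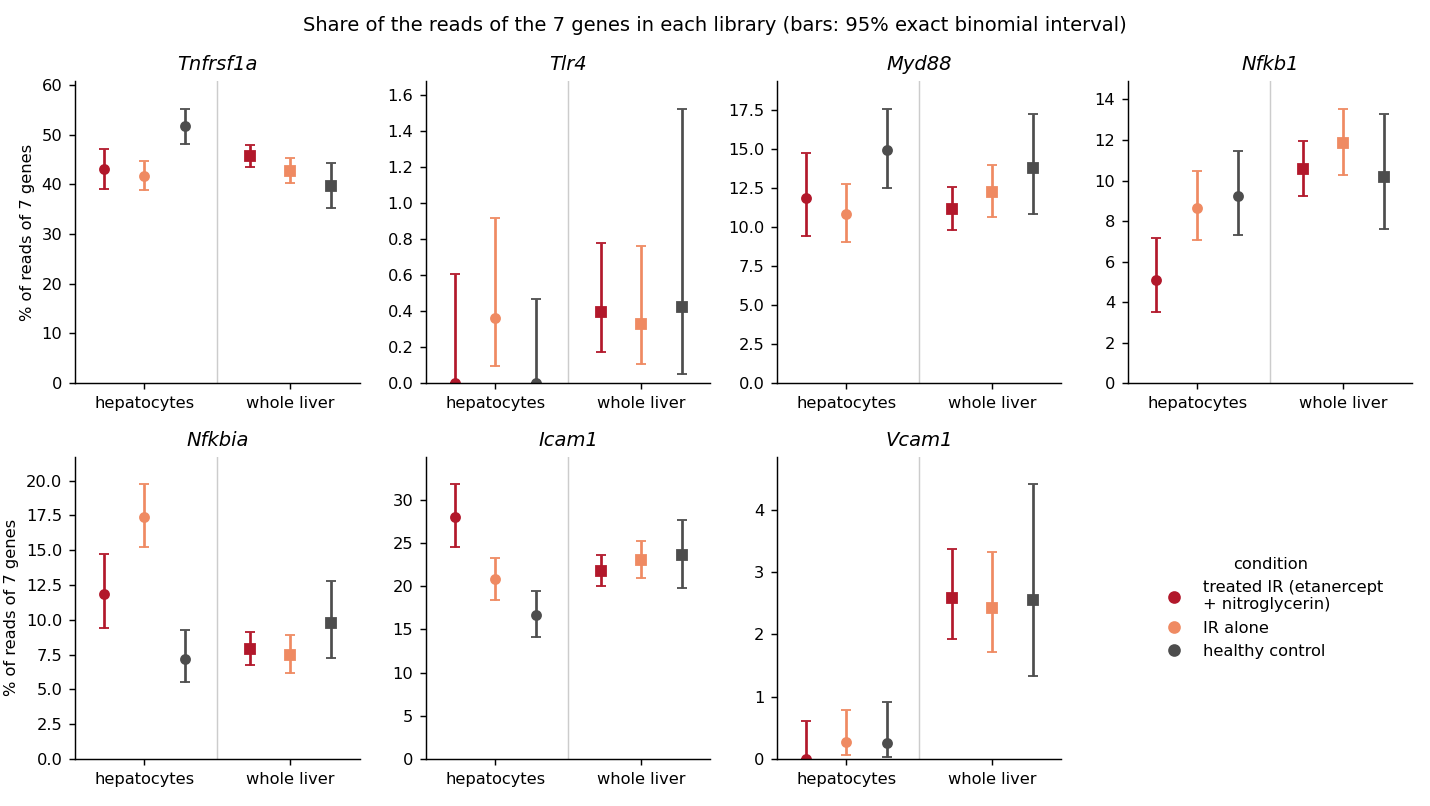
Share of the reads of the 7 genes taken by each gene (vertical axis, percent, a separate scale per gene) in each library, with 95% exact binomial intervals. The Nfkbia share was 11.9% and 17.4% in treated IR and IR hepatocytes against 7.21% in control hepatocytes, while its liver shares lay between 7.45% and 9.77%.

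Hepatocytes were also compared with whole liver, condition by condition. Vcam1 had the widest gap, but it entered the tested genes through its liver libraries alone, so it had to differ, and its values are given as a description. It averaged 0.400 ± 0.347 CPM in hepatocytes and 5.89 ± 0.921 CPM in whole liver (n = 3 conditions, ± SD), and the 2 sets of libraries did not overlap, as for 11.5% of all genes in this direction. Summed over conditions there were 5 reads in hepatocytes and 101 in liver, a 12.9-fold higher level in liver (counting interval 5.34 to 40.6).

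The fitted log2 ratio of hepatocytes to liver for Vcam1 was -3.59 (SE 0.68). It was the 1 of 6 genes that edgeR's quasi-likelihood test called between the preparations, beside 5.34% of all genes (4.9% as lower), and for the reason given this call is not used as support. In treated IR the hepatocyte library had 0 reads, and with the limit of 3 reads its level was at least 4.98-fold lower than in liver. In IR and control the ratios were 0.106 (0.0209 to 0.334) and 0.119 (0.0129 to 0.532), from 3 and 2 hepatocyte reads. Fewer cells of a type and less RNA per cell cannot be told apart in such pooled samples, and the part of other liver cells in this difference was not tested.

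**Figure D4:**
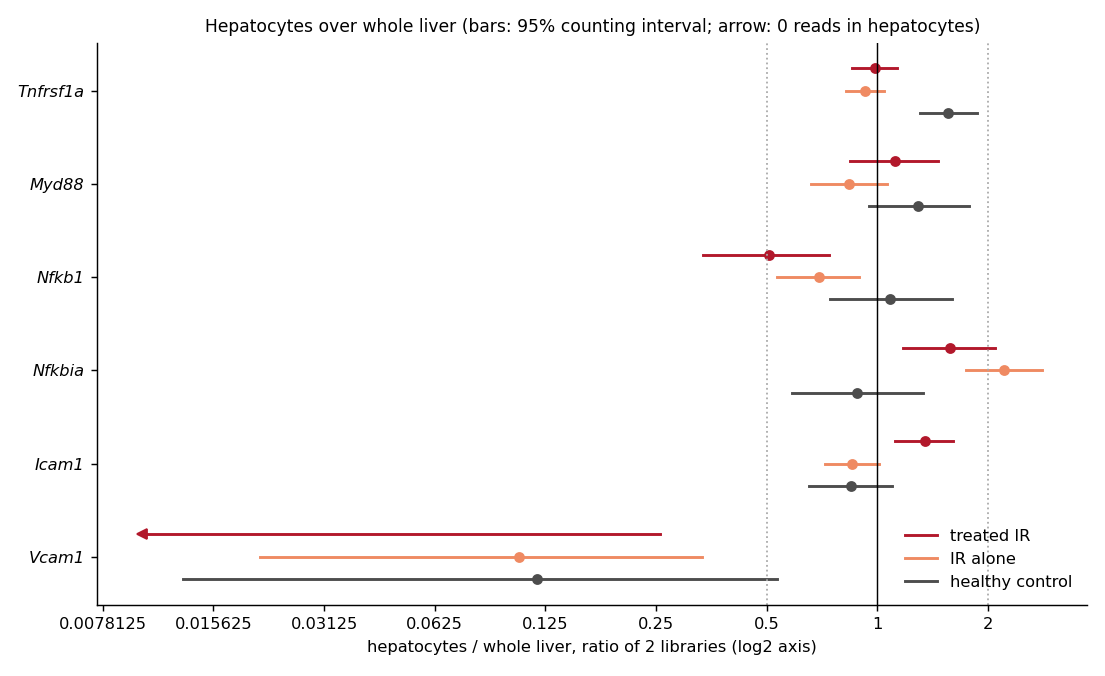
Hepatocytes over whole liver (horizontal log2 axis) for the 6 genes over the filter, 1 point per condition, with 95% counting intervals as bars and an arrow where hepatocytes had 0 reads. Vcam1 lies far to the left in all 3 conditions, and Nfkbia lies at 1.57, 2.21 and 0.881 in treated IR, IR and control.

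The other 5 genes did not pass that test, with adjusted p from 0.647 (Nfkbia) to 0.998 (Icam1) in edgeR. Nfkbia averaged 29.5 ± 10.4 CPM in hepatocytes and 19.4 ± 2.24 CPM in liver (n = 3 conditions, ± SD), with a log2 ratio of 0.58 (SE 0.31), which came to 0.22 without hepatocyte IR, 0.27 without liver IR and 0.91 without the hepatocyte control library or, separately, the liver control library. Its ratio of hepatocytes to liver was 1.57 in treated IR (1.18 to 2.09), 2.21 in IR (1.74 to 2.81) and 0.881 in control (0.587 to 1.33). The interval of the control pair includes 1, and the IR pair met the rule of size.

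Nfkb1 averaged 18.5 ± 4.13 CPM in hepatocytes and 25.4 ± 3.94 CPM in liver (n = 3 conditions, ± SD), with a log2 ratio of -0.47 (SE 0.30, adjusted p = 0.812, edgeR), which came to -0.21 without hepatocyte treated IR, -0.25 without liver treated IR and -0.73 without the hepatocyte control library or, separately, the liver control library. Its ratio of hepatocytes to liver was 0.506 in treated IR (0.336 to 0.740), 0.692 in IR (0.535 to 0.891) and 1.08 in control (0.741 to 1.59). With TMM, the treated IR value came close to the 2-fold line without crossing it. By library totals alone Nfkb1 in treated IR was at 11.4 CPM in hepatocytes and 35.2 in liver, a gap beyond 2-fold. For both genes the control pair lay nearest to 1 with TMM. By library totals the treated IR pair of Nfkbia lay nearest to 1, at 26.5 CPM in hepatocytes and 26.2 in liver. Its control pair was then at 16.5 and 23.6 CPM.

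With TMM, Tnfrsf1a showed the reverse, with the control pair farthest from 1. Its ratios of hepatocytes to liver were 0.985 in treated IR (0.855 to 1.13), 0.925 in IR (0.820 to 1.04) and 1.56 in control (1.31 to 1.86). Icam1 had 1.34 in treated IR (1.12 to 1.61), 0.854 in IR (0.720 to 1.01) and 0.846 in control (0.652 to 1.099). By library totals alone the treated IR pair of Icam1 was at 62.6 CPM in hepatocytes and 72.6 in liver. That of Tnfrsf1a was at 96.1 and 152 CPM. The treated IR direction of Icam1 thus depends on the scaling, as does the closeness of the Tnfrsf1a pair. Myd88 ranged from 0.837 in IR to 1.29 in control, with all 3 intervals including 1 under TMM. By library totals alone its treated IR pair was at 26.5 CPM in hepatocytes and 37.1 in liver, so its direction depends on the scaling too. By the rule of size with TMM, 1 of 6 genes was called in treated IR, beside 19.7% of all genes, 2 of 6 in IR, beside 17.4%, and 1 of 6 in control, beside 11.1%. Over the 6 libraries, the Pearson correlation of log2 CPM among the 15 pairs of genes ran from -0.77 (Nfkb1 with Nfkbia) to 0.84 (Nfkb1 with Vcam1), a description that mixes preparation and condition.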

How the data were processed

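The authors deposited unnormalized counts of reads for each Ensembl gene ID, from mRNA-selected RNA sequenced on an Ion Torrent Proton, per the labels. The submitters' processing notes name TopHat2 2.0.13 and HTSeq 0.6.1. The sources used here give no build, annotation or strand setting, and reads of overlapping or antisense genes cannot be told apart. Summary lines were left out; reads outside genes were 6.23% to 8.34%, and ambiguous reads 0.358% to 0.798%, of these reads and those in genes together.

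Groups were taken from the titles. All 26689 IDs were filtered with filterByExpr (minimum count 10, by condition) and scaled by TMM (factors 0.794 to 1.24) in R 4.3.3. Pairs of libraries were compared by scaled ratios with 95% Clopper-Pearson intervals, and called at 2-fold or more with an interval excluding 1. Log2 ratios of pairs used a prior count of 2. Effects over all 6 libraries were tested with edgeR 4.0.16 (glmQLFit, glmQLFTest, additive in preparation and condition) with Benjamini-Hochberg adjustment over 9932 genes at 0.05, and the SE was taken from the log2 ratio and F. Intervals and limits cover only counting error, as the labels name no molecular identifiers. P-values rest on the spread left by the additive model, which mixes differences between pools with responses that differ between the preparations.

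The alternatives were DESeq2 1.42.0 (size factors, Wald test), limma-voom (limma 3.58.1), library totals, no filter, a minimum count of 50, a 4-fold rule, leaving out each library and, added after seeing the data, scaling by the summed reads of the 7 genes. Scripts were tested on simulated data. The genes, lists and tests were chosen with earlier results of these data known. All 7 genes are named throughout. The lists of other pathway genes and of cell type markers, held as symbols, were not used because no ID matched the reference table, and for the same reason no other gene is named by likeness. Promoter letters come from RefSeq (GRCr8), where all 7 symbols matched; the build of the counts may differ.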

Additional observations from a re-analysis of the deposited data

Results flagged for a closer look

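Tnfrsf1a differed in opposite directions between IR and control in the preparations, with both counting intervals excluding 1. The ratio of IR to control was 0.705 in hepatocytes and 1.19 in whole liver. Whether the preparations differed was not tested, since each ratio has 1 library per side. With library totals alone the liver ratio was 0.949, and with DESeq2's size factors it was 1.17 with an interval that included 1. Of the 5 genes with more than 3 reads in every library, no other met this in any of the 3 comparisons with TMM. By library totals alone Nfkbia met it in IR against control (2.19 in hepatocytes, 0.673 in liver). Nfkb1 (0.634, 1.39) and Nfkbia (0.732, 1.65) then met it in treated IR against IR. Tnfrsf1a (0.810, 1.58) and Nfkb1 (0.539, 1.43) met it in treated IR against control.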

How the results depend on the processing

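No paired analysis was possible because the preparations came from different animals, which were pooled within each group. For the condition effects the preparation serves as the block. For IR against control in hepatocytes the 1 gene called became 0 under a 4-fold rule. For hepatocytes against liver the 1 gene called became 0 with a minimum count of 50, since Vcam1 was then not tested. Leaving out each library in turn gave 1 gene called for hepatocytes against liver each time and 0 for each condition effect. The called gene was Vcam1 (log2 -3.99 to -3.11), which had to differ because it passed the filter through liver alone. The log2 ratio of Nfkbia for IR against control across preparations ran from -0.12 to 0.96 when each library was left out. It reversed to -0.12 without hepatocyte control and -0.04 without hepatocyte IR, where the condition concerned is left with its liver library alone.

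The numbers of the 7 genes called between conditions and in the tests over all libraries were otherwise as in the text. The rule of size was applied to single pairs of hepatocytes and liver with TMM only, so their calls under other scalings were not tested. Nfkb1 in treated IR, not called with TMM, was beyond 2-fold by library totals alone (11.4 CPM in hepatocytes and 35.2 in liver). Library totals moved the median log2 ratio of all genes in liver to -0.26 for IR against control (0.04 with TMM), and in hepatocytes to -0.31 for treated IR against IR (-0.04) and -0.17 for treated IR against control (0.02); 1 of 6 genes then lay above 1 for IR against control in liver, in place of 4. Scaled by the summed reads of the 7 genes, which by construction balances their ratios around 1, IR to control of Nfkbia in hepatocytes was 2.41. For hepatocytes against liver, library totals moved the median log2 ratio of all genes to -0.27. Over all genes, leaving out each library gave 3 to 402 calls for IR against control, 0 to 659 for treated IR against IR and 0 to 37 for treated IR against control, in place of 0, with 402 and 659 without liver IR. All-gene calls also moved with the filter: a minimum count of 50 gave 158 genes for hepatocytes against liver in place of 530, and 58 in place of 275 for treated IR against IR in liver. Depth limits Tlr4 in all libraries and Vcam1 in hepatocytes.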
